A study of Mus musculus with 11 samples.

Results

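The 48 genes described here are interferon-stimulated genes, a listed set chosen by name and matched by symbol to the Ensembl identifiers of the count tables. All 48 were found among the 25006 genes counted, and all 48 passed the filter on low counts that left 14779 genes for testing. They were measured by stranded mRNA-Seq of left ventricular tissue from 11 mice, with 1 library per M number. The groups were naive control (M44 and M45), naive Vegfc-deficient (M149, M150 and M34), MI control (M006, M38 and M40) and MI Vegfc-deficient (M35, M900 and M913). MI mice had permanent ligation of the descending coronary artery, and infarcted tissue was taken 9 days later. From naive mice a matching piece of ventricle was taken. Vegfc-deficient mice carried Vegfc fl/fl and LysMCre, a Cre recombinase expressed from the lysozyme locus of myeloid cells, so that Vegfc could be lost from macrophages, monocytes and neutrophils and not from other cardiac cells. Control mice were labelled Vegfc fl/fl, without Cre, whereas the protocol and the methods name LysMCre mice as the controls. Whether the control hearts carried Cre is thus unsettled. Ages were not given in the sources used here. The questions of the design were how the left ventricle responded to MI in each genotype and how the genotypes differed after MI and without it.

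Interferons are secreted proteins that warn cells of infection or damage. Type I interferons signal through IFNAR1 and IFNAR2 to a complex with STAT2 and IRF9, which binds the interferon-stimulated response element (ISRE) of target promoters. Interferon-gamma, made mainly by T and NK cells, signals through IFNGR1 and IFNGR2 and acts on promoters at the gamma-activated sequence (GAS). The target genes encode sensors of foreign nucleic acid, proteins that block viral replication, and GTPases that attack vacuoles holding pathogens. In the infarcted heart, nucleic acid of dying cells is a known trigger of type I interferon signaling in macrophages.

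To show the elements shared by these genes, the RefSeq promoters of GRCm38.p6 were read, from 250 bases before to 50 bases after each gene start. A promoter was found for 37 of the 48 genes, the others being Dhx58, Zbp1, Oas2, Mx1, Mx2, Rtp4, Usp18, Parp9, Parp14, Iigp1 and Ifi27l2a. The ISRE core was searched as GAAANNGAAA on both strands. It was present in 20 of the 37 genes (54.1%), beside 3.99% of 27025 genes with a promoter in the table. In the 250 bases before the start alone, 16 of 37 held it (43.2%), beside 3.46% of all genes. GAS was searched as TTCNNNGAA, which is its own reverse complement. It was present in 13 of 37 genes (35.1%), beside 9.55% of all genes. Every guanylate-binding protein and immunity-related GTPase with a promoter in the table held an ISRE core, 7 of 7. The stretches printed are 80 bases of the gene's own strand before the start, from the genes on which the following results turn most. Capitals mark the ISRE core on either strand or, for Irf1 alone, GAS. Adjacent cores that overlap run together.
Isg15, chr4:156200840-156200919, minus strand: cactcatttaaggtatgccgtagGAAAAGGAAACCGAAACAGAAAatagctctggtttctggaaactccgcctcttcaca
Ifit1, chr19:34640769-34640848, plus strand: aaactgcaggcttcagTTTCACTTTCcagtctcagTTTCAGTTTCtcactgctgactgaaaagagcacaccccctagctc
Ifit3, chr19:34583372-34583451, plus strand: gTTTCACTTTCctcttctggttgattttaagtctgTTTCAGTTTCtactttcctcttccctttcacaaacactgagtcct
Oas3, chr5:120777690-120777769, minus strand: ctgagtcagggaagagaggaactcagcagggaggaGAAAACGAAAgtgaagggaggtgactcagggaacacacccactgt
Gbp2, chr3:142620569-142620648, plus strand: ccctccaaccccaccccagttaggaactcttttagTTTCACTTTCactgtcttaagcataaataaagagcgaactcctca
Gbp7, chr3:142530248-142530327, plus strand: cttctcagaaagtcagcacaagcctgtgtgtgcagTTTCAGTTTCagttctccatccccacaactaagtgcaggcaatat
Igtp, chr11:58199476-58199555, plus strand: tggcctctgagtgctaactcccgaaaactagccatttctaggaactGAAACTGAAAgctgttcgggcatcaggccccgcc
Irgm2, chr11:58214878-58214957, plus strand: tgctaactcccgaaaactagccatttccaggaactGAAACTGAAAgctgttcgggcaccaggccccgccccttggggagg
Irgm1, chr11:48871421-48871500, minus strand: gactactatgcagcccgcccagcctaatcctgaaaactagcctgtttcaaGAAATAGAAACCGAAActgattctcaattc
Irf1, chr11:53769889-53769968, plus strand: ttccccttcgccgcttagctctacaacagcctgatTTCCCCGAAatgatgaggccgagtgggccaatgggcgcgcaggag
In the printed stretch of Isg15, 3 overlapping cores lay in a row. The stretches of Ifit1, Ifit3 and Irgm1 held 2 each. The stretch of Igtp matched Irgm2 at 78 of 80 bases when set beside the matching bases, whereas 184 of 270 aligned bases (68.1%) were the same over the whole promoters. Irf1 held GAS and no ISRE core. A match is a description of letters and does not show binding.

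Between genes, levels were compared as CPM (counts scaled to library size, with edgeR's TMM factors) per kilobase of exon, averaged over the 11 libraries. Ifitm3, which blocks viral entry at membranes, had the highest level, 648 CPM per kb. Ifi27l2a followed with 544 CPM per kb, and Bst2, the tetherin that holds virions at the cell surface, with 138 CPM per kb. Oas3, which makes the messenger that activates RNase L, had the lowest level, 0.617 CPM per kb. A floor of 3 counts was 0.101 to 0.363 CPM in these libraries, for counting error only, and Oas3 lay under it in M150, with 0.242 CPM. As a median over the 48 genes, group mean levels were 24.7 CPM in naive control, 33.2 in naive Vegfc-deficient, 60.2 in MI control and 44.3 in MI Vegfc-deficient hearts. The MI control means include M38, the highest library for 42 of the 48 genes. The median log2 fold change of Vegfc-deficient against control hearts after MI was -0.33 with M38 and 0.32 without it.

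**Figure D1:**
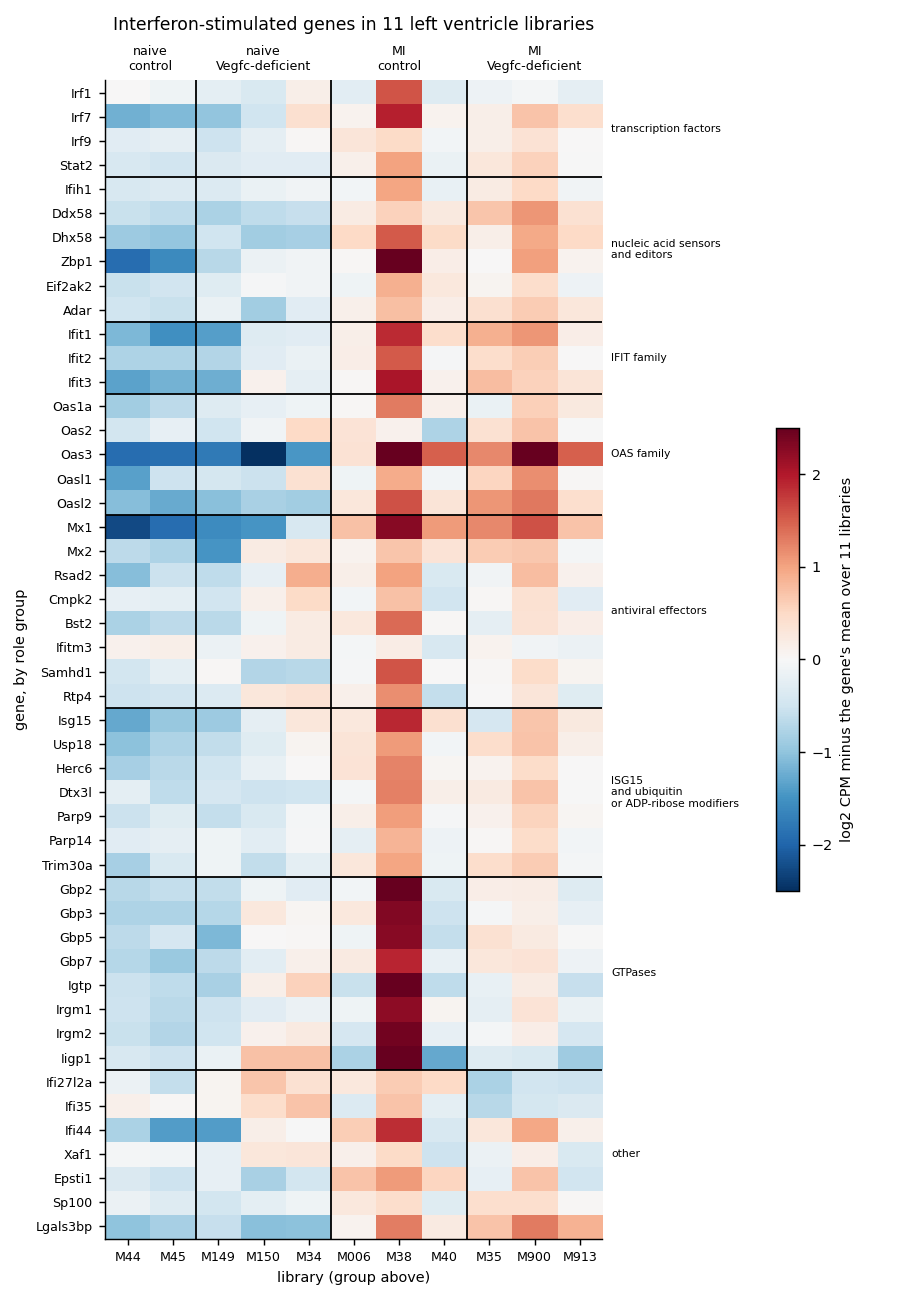
Log2 CPM of each of the 48 genes (rows, by role group) in each of the 11 libraries (columns, by group), minus the gene's mean over the libraries, with colors capped at 2.5 in either direction. MI control M38 was the highest library for 42 of 48 genes, and the GTPase rows show the widest gap between it and the other MI control libraries.

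Total counts were 10824989 to 26782728 per library. Vegfc itself was at 21.9 to 45.5 CPM and did not separate by genotype in these whole-tissue libraries. Lyz2, the locus that carries LysMCre, was at 4565 CPM in the naive Vegfc-deficient library labelled M149, above both naive control libraries (2121 and 2282 CPM), and at 72.5 and 245 CPM in M150 and M34. After MI it was at 4538 to 5380 CPM in control hearts and at 1392 (M35), 203 (M900) and 12.4 CPM (M913) in Vegfc-deficient hearts. The library labelled M149 thus went against its label, and results are given with and without it. Xist was at 0.624 to 11.8 CPM in naive and 188 to 403 CPM in MI libraries, and 4 Y-linked genes together were at 152 to 195 CPM in naive and at most 1.84 CPM in MI libraries, so that the sex of the mice and MI cannot be told apart. Summed cardiomyocyte markers (6 of 6 found) were at 48560 to 65140 CPM in naive and 1722 to 15580 CPM in MI libraries. In bulk tissue, fewer cells of a type and less RNA per cell cannot be told apart.

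MI control M38 stood apart from the other libraries for these genes. It had the highest level of all 11 libraries for 42 of the 48 genes (87.5%), whereas it was highest for 9.61% of all genes tested. M900 was highest for 4 genes, M150 and M34 for 1 each. In 15 genes M38 was at least 2-fold above the next highest library. Relative to the mean of M006 and M40, the other MI control libraries, the median ratio of M38 was 2.25 over the 48 genes and 0.986 over all genes tested. The ratio was 2 or more in 33 members (68.8%), beside 6.27% of all genes, and 4 or more in 8 members (16.7%), beside 1.63%.

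The GTPases were the role group with the highest median ratio in M38. These are the guanylate-binding proteins Gbp2, Gbp3, Gbp5 and Gbp7 and the immunity-related GTPases Igtp, Irgm1, Irgm2 and Iigp1, classical targets of interferon-gamma. Their ratios were 3.66 to 19.6, with a median of 6.36. Iigp1 was at 43.7 CPM in M006, 734 in M38 and 31.4 in M40. Igtp was at 32.1, 375 and 30.3 CPM in the same libraries. Gbp2 was at 118, 812 and 95.5 CPM. In each of these genes M006 and M40 lay close together and M38 far above both. Igtp and Irgm2 models overlap by 7974 bases on the same strand and share 11.8% of Igtp's 50-base words, so reads could be split between them and their separate values are uncertain. Outside the GTPases, the highest ratio was that of Zbp1, a sensor of Z-form nucleic acid that can trigger necroptosis, with 17.8, 152 and 19.6 CPM and a ratio of 8.15. The IFIT proteins, which bind viral RNA caps, had ratios of 2.77 to 3.89, and the transcription factors had 1.29 to 3.64. Among promoters in the table, genes holding an ISRE core had a median ratio of 2.95 (20 genes) and those without it 2.07 (17 genes). Every GTPase with a promoter was among the holders, so this gap is not separate from that of the GTPases. For GAS the medians were 2.77 with it (13 genes) and 2.18 without it (24 genes). The GTPases Gbp5, Gbp7, Igtp and Irgm2 held GAS, and Gbp2, Gbp3 and Irgm1 did not. The gap for GAS is thus not separate from that of the GTPases either.

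**Figure D2:**
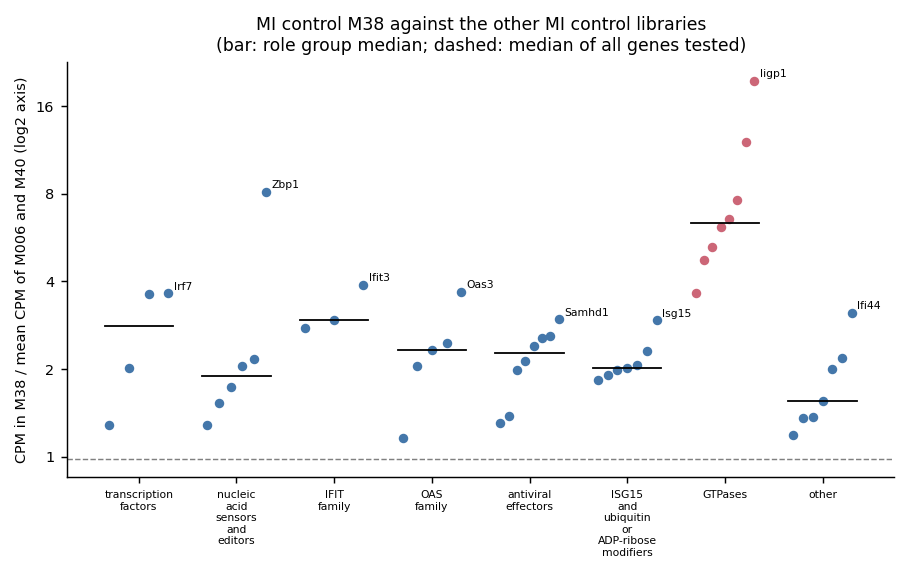
CPM in MI control M38 divided by the mean CPM of MI control M006 and M40 (log2 axis) for each of the 48 genes, by role group, with bars at group medians and the dashed line at the median of all genes tested, 0.986. All 48 points lie above the dashed line, and the GTPases, in red, reach 19.6 for Iigp1.

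Some other genes of the pathway and several, not all, of the immune cell marker lists were also highest in M38. Ifng, the ligand of the gamma receptor, was at 5.04 CPM in M38 and at most 0.166 CPM in every other library. The chemokine Cxcl9, which draws T cells and is induced by interferon-gamma, was at 603 CPM in M38 and 4.26 to 44.1 CPM elsewhere. Summed T cell markers (6 of 7 found, none at 0 in M38) were at 163 CPM in M38, 15.6 and 30.0 in the other MI control libraries, 20.2 to 29.2 in MI Vegfc-deficient, 8.43 to 14.3 in naive Vegfc-deficient and 4.64 to 5.44 CPM in naive control libraries, where Cd3e was at 0. NK cell markers (4 of 4 found) were at 111 CPM in M38 and 13.4 to 21.8 CPM in the other MI libraries. Dendritic cell and MHC class II markers (6 of 6 found) were at 11920 CPM in M38 and 1772 to 2631 CPM in the other MI libraries. The MHC class II genes are themselves targets of interferon-gamma. Monocyte markers (3 of 3 found) were at 420 CPM in M38, 129 and 193 CPM in the other MI control libraries and 100 to 150 CPM in MI Vegfc-deficient libraries. Macrophage markers (7 of 7 found) were at 4728 CPM in M38 and 2645 and 3807 CPM in the other MI control libraries. Neutrophil markers were not highest in M38, with 59.9 CPM beside 343 CPM in M40. B cell markers were not either, with 15.3 CPM in M38 and 14.4 to 28.5 CPM in MI Vegfc-deficient libraries. Plasmacytoid dendritic cell markers were at 7.34 CPM in M38 and at 3.23 and 10.6 CPM in the other MI control libraries. The part of these cells in the levels of the 48 genes was not tested.

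After MI, control hearts had higher levels of most of these genes. With edgeR's quasi-likelihood test and Benjamini-Hochberg adjustment over all genes, 29 of 48 were higher and 0 lower at an adjusted p under 0.05 (60.4% and 0%), where 26.3% of all genes tested were called higher and 24.1% lower. The median log2 fold change was 1.30 over the 48 genes and 0.13 over all genes. Without M38, 21 were higher and 0 lower, beside 23.3% and 24.6% of all genes, and the median was 0.62. The 8 calls lost were those of Stat2, Dtx3l, Parp9, Trim30a, Gbp2, Gbp3, Irgm1 and Ifi44. The shares to set beside the role group counts of control hearts that follow are 26.3% with M38 and 23.3% without it. With M44 or M45 left out, 8 genes were called higher (16.7%) and 0 lower. Of all genes, 14.6% and 17.5% were then called higher and lower without M44, and 13.8% and 16.3% without M45. The lone naive control library is assumed there to vary like the other groups, and the cause of the lower count was not tested.

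The largest log2 fold changes in control hearts were those of Oas3, Zbp1 and Mx1. Mx1, a dynamin-like GTPase that blocks viral replication, was at 1.34 and 1.72 CPM in naive control hearts and 10.7, 31.2 and 13.4 CPM after MI. The groups did not overlap, and the log2 fold change was 3.59 ± 0.60 (SE; edgeR adjusted p = 0.00106). Without M38 it was 2.91 (adjusted p = 0.00113). Oas3 went from 0.535 and 0.544 CPM to 2.58, 15.1 and 5.61 CPM, a log2 fold change of 3.84 ± 0.86 from a level close to the floor. Oasl2, an OAS-like protein, was at 19.0 and 16.8 CPM in naive control and 48.3, 121 and 49.8 CPM in MI control hearts. Its log2 fold change was 2.03 ± 0.42 (edgeR adjusted p = 0.00296). Of the 5 OAS genes 3 were called, the third being Oas1a, whose value is uncertain because 57.6% of its 50-base words are shared with Oas1g. Oas2 and Oasl1 were not called. In 8 antiviral effectors, Mx1 and Bst2 were called. Ifitm3 was at 468 and 482 CPM in naive control and 425, 495 and 332 CPM in MI control hearts, with overlapping groups and a log2 fold change of -0.19 ± 0.20.

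The sensors and editors of nucleic acid were called in 5 of 6 genes, and the same number without M38. Of all genes tested, 26.3% were called higher with M38 and 23.3% without it. Adar, an RNA editor, was among the 5. Dhx58, the RIG-I-like helicase LGP2, was at 6.60 and 6.34 CPM in naive control and 17.6, 35.8 and 17.2 CPM in MI control hearts. All MI values lay above all naive ones, with a log2 fold change of 1.86 ± 0.37 (edgeR adjusted p = 0.00235). Ddx58, which encodes the RNA sensor RIG-I, was at 26.5 and 25.4 CPM before and 44.95, 58.6 and 46.2 CPM after MI, with a log2 fold change of 0.94 ± 0.21. Zbp1 went from 4.64 and 5.80 CPM to 17.8, 152 and 19.6 CPM, so that its log2 fold change of 3.60 ± 0.95 became 1.78 without M38, with edgeR adjusted p = 0.0103 and 0.00325. Ifih1 was the sensor not called.

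All 3 IFIT genes were called, with and without M38. Ifit3 was at 19.3 and 21.6 CPM in naive control and 49.9, 200 and 52.7 CPM in MI control hearts. Its log2 fold change was 2.30 ± 0.62 with M38 and 1.27 without it. Ifit3 shares 51.2% of its 50-base words with Ifit3b, so its level is uncertain. Among the ISG15 and ubiquitin or ADP-ribose modifiers, 6 of 7 were called with M38 and 3 without it. Dtx3l and Parp9, partners in 1 ligase complex, overlap by 682 bases on opposite strands, so their values are uncertain where strand was not used in counting. Isg15, a ubiquitin-like tag, was at 16.1 and 20.4 CPM in naive control and 46.9, 145 and 51.9 CPM in MI control hearts. Usp18, the protease that removes that tag, was at 9.63 and 11.5 CPM and 24.4, 41.2 and 18.7 CPM. Both were raised in every MI control library, with log2 fold changes of 2.16 ± 0.56 and 1.41 ± 0.34, and of 1.38 and 0.96 without M38. Parp14, an ADP-ribosyltransferase and the highest of the group in CPM, was at 53.9 and 56.8 CPM and 56.6, 118 and 60.1 CPM. Its log2 fold change of 0.50 ± 0.30 did not pass, and it was 0.01 without M38.

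Transcription factors were divided. Irf7, which drives type I interferon genes, was at 25.9 and 27.7 CPM in naive control and 63.2, 230 and 63.3 CPM in MI control hearts. Its log2 fold change was 2.15 ± 0.61 (edgeR adjusted p = 0.0140) and 1.18 without M38 (adjusted p = 0.0256). Irf7 and Ifi27l2a are among the genes that the study displays from these same samples, so their values here are not independent of that choice. Stat2 was called with M38 and not without it. Irf1, a factor induced by interferon-gamma, was at 78.8 and 72.3 CPM and 65.5, 232 and 62.8 CPM. Both other MI control libraries lay below the naive ones, and the log2 fold change of 0.67 ± 0.48 turned to -0.30 without M38.

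Among the role groups, the GTPases had the largest shift of the median when M38 was left out. Of 8 genes, 4 were called with it (Gbp2, Gbp3, Gbp7 and Irgm1) and Gbp7 alone without it. Gbp7 shares 12.7% of its 50-base words with other genes. Their median log2 fold change was 1.91 with M38 and 0.31 without. Gbp2 was at 76.7 and 82.7 CPM in naive control hearts, and its log2 fold change of 2.10 ± 0.79 became 0.36. Iigp1 was at 57.7 and 53.1 CPM, above both M006 and M40, so that its log2 fold change of 2.28 ± 1.132 became -0.63. Neither Iigp1 value passed the test.

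**Figure D3:**
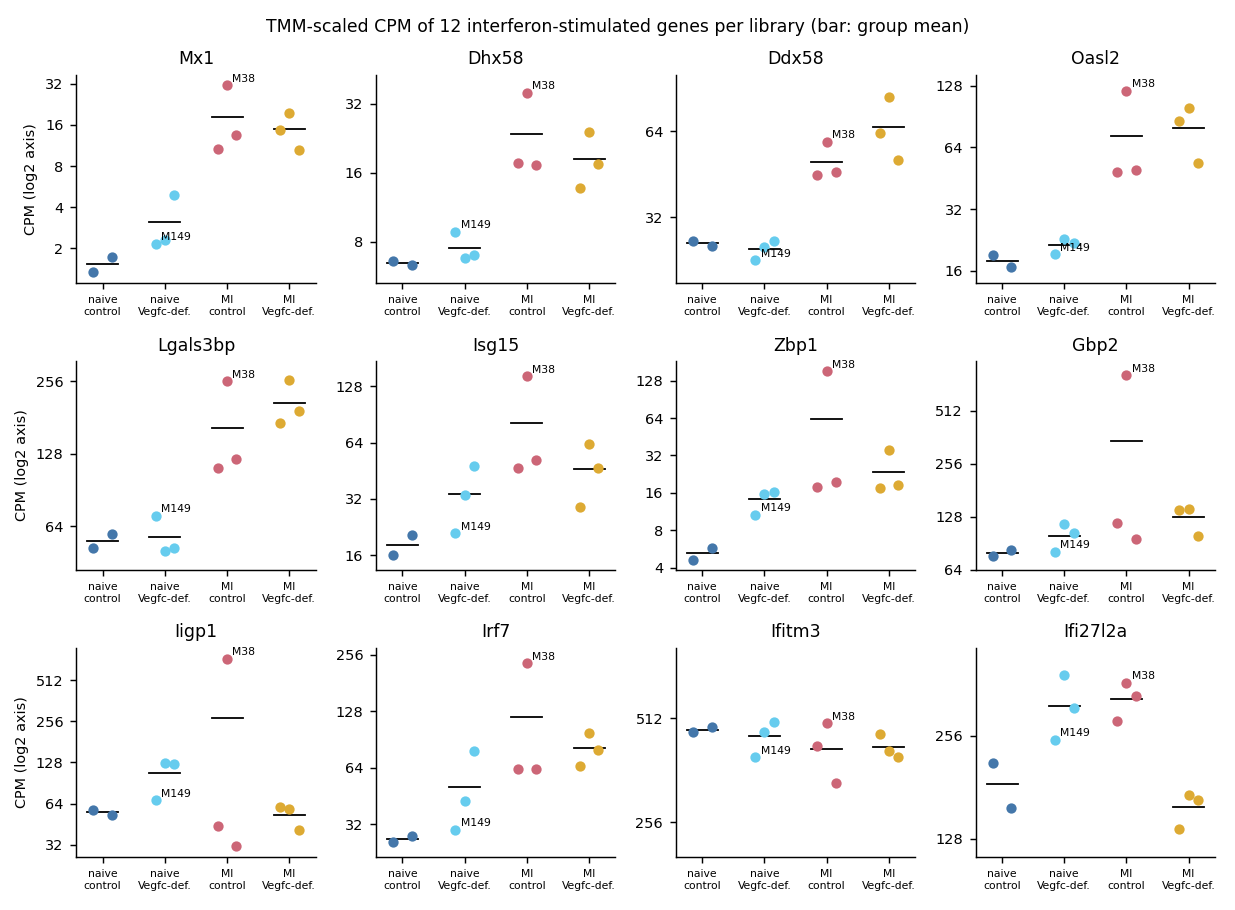
CPM (log2 axis) of 12 of the genes in each library, as points by group with a bar at the group mean. Mx1, Dhx58, Ddx58, Oasl2 and Lgals3bp are higher in every MI library than in every naive library. For Gbp2 and Iigp1 only M38 stands out among the MI libraries, and Ifi27l2a is lowest in the naive control and MI Vegfc-deficient groups.

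In Vegfc-deficient hearts, 9 of the 48 genes were called higher after MI (18.8%), where 30.0% of all genes were, and 2 lower (4.17%), where 27.7% of all genes were. The 9 were Ddx58, Dhx58, Adar, Ifit1, Oas3, Oasl2, Mx1, Sp100 and Lgals3bp, and 8 of them were also among the 29 of control hearts, the exception being Sp100. The 2 called lower were Ifi35 and Ifi27l2a, and without M34 there was 1. The median log2 fold change was 0.47, beside 0.10 over all genes. Without the library labelled M149, 7 were called higher (14.6%), where 29.6% of all genes were, and 2 lower, where 27.0% of all genes were, with a median of 0.33. Ifit1 and Sp100 lost their calls (edgeR adjusted p = 0.0870 and 0.0944), and all 7 left were also called in control hearts. M38 is in neither group of this comparison and enters the fit through the spread that all groups share. Without it, 19 genes were called higher and 3 lower, beside 29.5% and 28.6% of all genes, with a median of 0.45. With the 2 Vegfc-deficient groups fitted alone, 17 were higher (35.4%) and 3 lower (6.25%), beside 30.4% and 26.5% of all genes. The counts without M38 were 21 in control and 19 in Vegfc-deficient hearts, of which 12 were shared.

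The smallest p-values were those of Ddx58, Lgals3bp and Oasl2. Ddx58 was at 22.7, 25.2 and 26.4 CPM in naive (the library labelled M149 first) and 63.2, 84.1 and 50.8 CPM in MI Vegfc-deficient hearts. The groups did not overlap, and the log2 fold change was 1.42 ± 0.18 (edgeR adjusted p = 0.000172). Lgals3bp, a secreted glycoprotein that binds galectin-3, was at 70.9, 50.7 and 51.8 CPM and 173, 258 and 192 CPM, a log2 fold change of 1.84 ± 0.31. Oasl2 was at 19.2, 22.9 and 21.9 CPM and 86.0, 99.4 and 53.6 CPM, a log2 fold change of 1.90 ± 0.36. Mx1 was at 2.16, 2.30 and 4.88 CPM and 14.7, 19.4 and 10.6 CPM, a log2 fold change of 2.23 ± 0.47. In these 4 genes every MI library was above every naive library. No GTPase was called, and their median log2 fold change was 0.19, with Iigp1 at 67.6, 126 and 126 CPM in naive and 60.5, 58.2 and 40.7 CPM in MI hearts. Iigp1 lay lower in all 3 MI libraries than in all 3 naive ones, and its log2 fold change of -1.004 ± 0.94 passed the test without M38 (edgeR adjusted p = 0.377 with M38 and 0.00671 without). Irf7 was at 30.0, 42.4 and 79.0 CPM and 65.6, 98.2 and 79.6 CPM, and the log2 fold change of 0.68 ± 0.50 did not pass. Among the 3 MI Vegfc-deficient libraries, M900 was the highest for 42 of the 48 genes. The share of all genes within these 3 libraries is not given here. Of all genes tested, 14.2% were highest in M900 among the 11 libraries, beside 7.0% in M35 and 4.45% in M913.

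**Figure D4:**
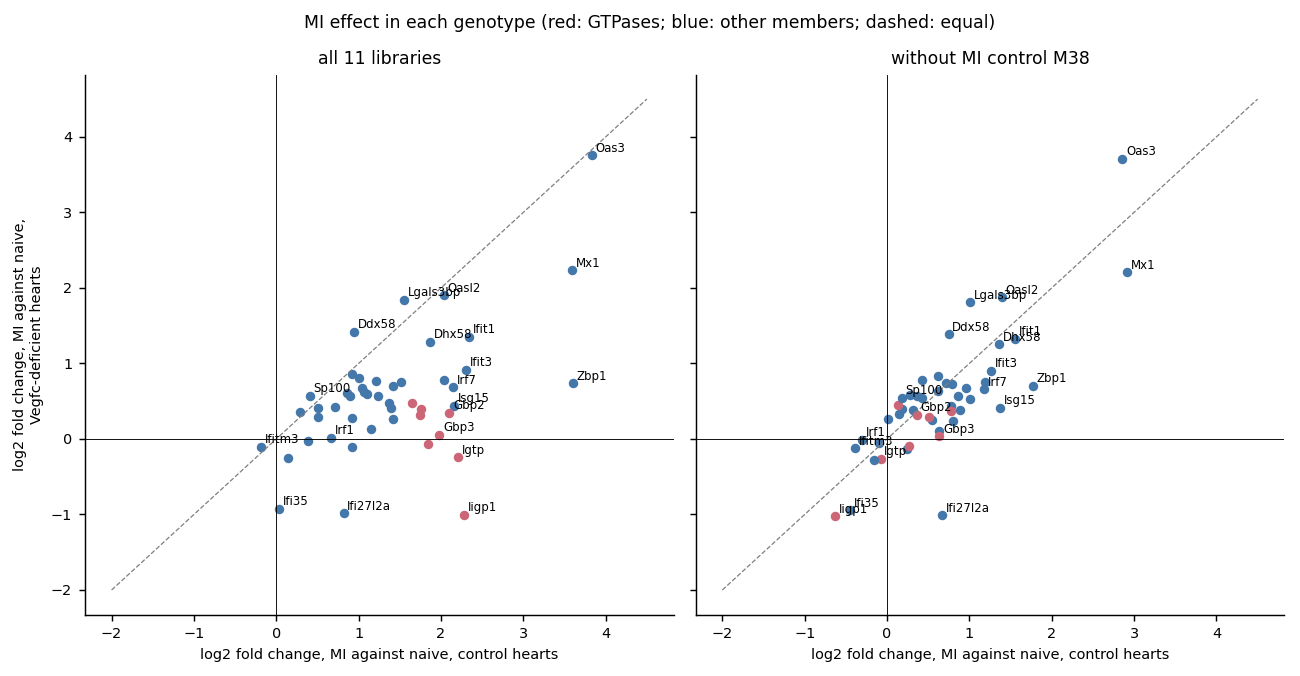
Log2 fold change of MI against naive in control hearts (x axis) and Vegfc-deficient hearts (y axis) for each of the 48 genes, fitted with all 11 libraries (left) and without MI control M38 (right), GTPases in red and equality as a dashed line. The GTPases sit far to the right of the line on the left and close to it on the right, where Iigp1 moves from 2.28 to -0.63 on the x axis.

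After MI, no gene of the 48 differed between Vegfc-deficient and control hearts by edgeR's quasi-likelihood test, and none of all genes tested did (0%). The smallest adjusted p of the 48 was 0.578, that of Ifi27l2a. At an unadjusted p under 0.05 there were 5 genes (10.4%), Ifi35, Epsti1, Ddx58, Iigp1 and Ifi27l2a, beside 7.94% of all genes. DESeq2's Wald test called 1 gene, Ifi27l2a, beside 0.420% of all genes, and gave no adjusted p for 12 of the 48. By library, 0 genes had all MI Vegfc-deficient values above all MI control values, where 5.99% of all genes did. Ifi35 and Ifi27l2a were lower without overlap (4.17%), where 6.12% of all genes were.

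The direction of this comparison turned on M38. With it, 39 of 48 log2 fold changes were below 0, with a median of -0.33. Without it, 43 were above 0, with a median of 0.32, and again none passed. The GTPases moved most, from a median of -1.26 to 0.27. Gbp2 in MI Vegfc-deficient hearts was at 139, 142 and 99.8 CPM, within the range of 95.5 to 812 CPM of MI control hearts, and its log2 fold change was -1.43 ± 0.66 with M38 and 0.28 without. That of Zbp1, with 17.4, 35.2 and 18.4 CPM in MI Vegfc-deficient hearts, went from -1.42 ± 0.71 to 0.36. Isg15, at 29.1, 63.0 and 46.7 CPM, went from -0.81 ± 0.46 to -0.07. Epsti1 was at 14.3, 27.1 and 11.9 CPM, beside 26.9, 34.6 and 23.9 CPM in MI control hearts. It kept its sign, with -0.68 ± 0.29 and -0.49, and its groups overlapped through M900. Ifi35, at 39.1, 46.2 and 48.7 CPM beside 49.5, 103 and 52.8 CPM, was lower without overlap, by a gap of less than 1 CPM between M913 and M006.

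In naive hearts, many of these genes lay higher in the Vegfc-deficient than in the control libraries, and none passed the test. edgeR called 0 of 48 and 0 of all genes (0%). At an unadjusted p under 0.05 there was 1 gene, Ifi27l2a (2.08%), beside 3.38% of all genes, and DESeq2 called 0, beside 0.0947% of all genes. By library, 19 of 48 genes were higher in all 3 Vegfc-deficient than in both control libraries (39.6%), where 12.3% of all genes were, and 0 were lower, where 10.1% of all genes were. Without the library labelled M149 these counts were 34 higher (70.8%), where 24.6% of all genes were, and 2 lower, Samhd1 and Lgals3bp, where 21.0% of all genes were. edgeR still called 0 of 48, with a smallest adjusted p of 0.30. The median log2 fold change over the 48 genes was 0.35 with that library and 0.55 without it.

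The 3 naive Vegfc-deficient libraries differed among themselves. Relative to the mean of M44 and M45, the median log2 ratio over the 48 genes was 0.61 in M34, 0.42 in M150 and 0.10 in the library labelled M149. M34 had the highest level of the 5 naive libraries for 31 genes. The share of all genes within the 5 naive libraries is not given here. Among the 11 libraries, M34 was highest for 8.0% of all genes tested, M150 for 19.5% and the library labelled M149 for 5.25%. Rsad2, the radical enzyme viperin, was at 11.3 and 16.4 CPM in naive control hearts, 15.4 in the library labelled M149, 20.6 in M150 and 44.6 CPM in M34. Its groups overlapped, and the log2 fold change was 0.96 ± 0.52. Usp18 was at 9.63 and 11.5 CPM, beside 12.8, 16.0 and 20.7 CPM in the same order, without overlap. Zbp1 was at 4.64 and 5.80 CPM, beside 10.7, 15.6 and 16.4 CPM, a log2 fold change of 1.45 ± 0.90. Isg15 was at 16.1 and 20.4 CPM, beside 21.0, 33.4 and 47.9 CPM. For Isg15 the library labelled M149 lay close to the control libraries and M34 reached the level of MI hearts. Summed T cell markers moved with this order, with 14.3 CPM in M34, 11.3 in M150, 8.43 in the library labelled M149, and 4.64 to 5.44 CPM in naive control hearts. NK cell markers followed it within the Vegfc-deficient libraries alone, with 13.9, 6.4 and 3.63 CPM in the same order. Naive control hearts held 5.80 to 7.43 CPM, so the library labelled M149 lay below them and M150 within their range. Monocyte and macrophage markers did not follow the order. Monocyte markers were at 46.55, 18.3 and 35.5 CPM, beside 10.3 to 34.7 CPM. Macrophage markers were at 1420, 1396 and 2150 CPM, beside 1552 to 1629 CPM. Neutrophil markers (5 of 5 found) were at 73.2 to 110 CPM in the 3 Vegfc-deficient and 20.2 to 36.5 CPM in the control libraries. The part of these cells was not tested.

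**Figure D5:**
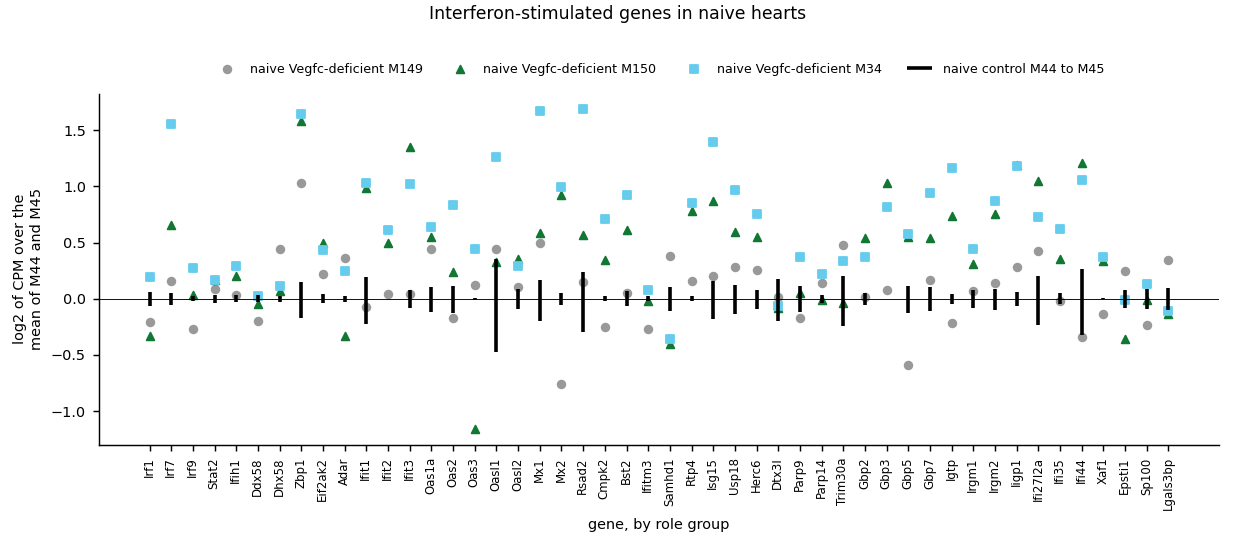
Log2 ratio of CPM in each naive Vegfc-deficient library to the mean CPM of naive control M44 and M45, for the 48 genes in role order, with the black bar giving the range of M44 and M45. The squares of M34 lie above 0 for 44 genes, the triangles of M150 for 36 and the circles of the library labelled M149 for 33. In the fit of these groups, the log2 fold change was above 0 for 41 of the 48 genes and for 52.4% of all genes tested.

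The response to MI differed between genotypes for none of the 48 genes by edgeR, and for none of all genes (0%). At an unadjusted p under 0.05 there were 6 genes (12.5%), Ifi35, Zbp1, Herc6, Isg15, Iigp1 and Ifi27l2a, beside 8.30% of all genes, and DESeq2 called 1, Ifi27l2a, beside 0.392% of all genes. The median difference of log2 fold changes, Vegfc-deficient minus control, was -0.69 with all libraries, -0.15 without M38 and -0.88 without the library labelled M149.

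Ifi27l2a (ENSMUSG00000079017, GRCm38 chromosome 12, 103442167 to 103443680, minus strand) had a pattern that did not rest on M38. It was at 213 and 158 CPM in naive control hearts and 283, 366 and 333 CPM in MI control hearts. It was at 249 (the library labelled M149), 384 and 308 CPM in naive Vegfc-deficient hearts and 136, 171 and 167 CPM in MI Vegfc-deficient hearts. Every control library was thus higher after MI and every Vegfc-deficient library lower. The log2 fold changes were 0.82 ± 0.23 in control (edgeR adjusted p = 0.0133) and -0.99 ± 0.20 in Vegfc-deficient hearts (adjusted p = 0.00210). After MI it was lower in Vegfc-deficient hearts by a log2 fold change of -1.05 ± 0.20, with an edgeR adjusted p of 0.578 and a DESeq2 adjusted p of 0.00107. The difference between the responses was -1.80 ± 0.31 on the log2 scale, with an edgeR adjusted p of 0.383 and a DESeq2 adjusted p of 0.000138. Without M38 the difference was -1.68 and without the library labelled M149 its edgeR adjusted p was 0.102. Of all genes tested, 102 (0.690%) differed between MI and naive libraries in opposite directions without overlap in this way, 1 of them a member. The study displays this gene from these same samples, so this is not independent evidence.

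Other genes of the pathway were read from a list of 41, of which 41 were found and 31 passed the filter on low counts. After MI, with M38 in the fit, 18 were called higher and 4 lower in control hearts. Of all genes tested, 26.3% were then called higher and 24.1% lower. In Vegfc-deficient hearts 15 were higher and 4 lower, beside 30.0% and 27.7% of all genes. No gene of the list was called between genotypes. The ligands were almost absent, with 7 of 10 at 0 in every library. Ifnb1, the type I ligand, reached 0.147 CPM, which is 4 counts in M40. Among the receptors Ifnar1 rose in both genotypes, with log2 fold changes of 0.96 in control and 0.93 in Vegfc-deficient hearts. Ifngr2 fell by 1.36 and 1.49, and Mavs, the mitochondrial adaptor of RIG-I, fell by 1.04 and 0.84. Irf8 and Tlr9, expressed in myeloid cells, rose in both genotypes, as did Tmem173, which encodes the DNA sensor adaptor STING, by 1.06 and 1.44. Cxcl10 and Ccl5 were called in control hearts, where M38 held 81.9 and 148.6 CPM and the other MI control libraries 3.45 to 14.1 CPM. Macrophage markers (7 of 7 found) were at 1396 to 2150 CPM in naive and 1921 to 4728 CPM in MI libraries, and their part in these changes was not tested.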

How the data were processed

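Left ventricular RNA of 11 mice was sequenced with a TruSeq stranded mRNA kit on an Illumina HiSeq. Per library, the authors deposited 1 table of unnormalized read counts over Ensembl genes. The submitters' processing notes name the build mm10, cutadapt 1.13, STAR, HTSeq 0.6.1p1 and DESeq2 1.14.1; the strand and multi-mapping settings of the counting are not given in the sources used here, so reads of overlapping or near-identical genes may have been split or dropped.

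Groups were taken from the sample titles. The labels do not say more of the animals, so p-values measure the spread between these libraries. Counts were filtered with edgeR's filterByExpr, scaled by TMM and fitted with edgeR 4.0.16 (R 4.3.3) as 4 groups in 1 quasi-likelihood fit of the 11 libraries. P-values were adjusted over 14779 genes, with a threshold of 0.05. CPM values were TMM-scaled, and fold changes are log2. Alternatives were DESeq2 size factors, DESeq2 1.42.0, no filter, the compared groups alone and each library left out. An adjusted p that DESeq2 did not give was left missing. Levels per kb used GENCODE exons, matched for 24991 of 25006 identifiers.

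The 48 genes, the role groups, the pathway and marker lists and the tests were chosen with earlier results of these data known. Library values are given for the member with the highest mean CPM of each role group, the 3 members with the smallest p in each comparison, and Irf7 and Ifi27l2a, which are among the genes the study displays. Igtp, Oas3 and Ifi35 were added after their values were seen. Over all libraries, plasmacytoid dendritic cell markers were at 2.32 to 10.6 CPM summed and B cell markers at 5.44 to 28.5 CPM. Of the marker lists, endothelial (258 to 653 CPM summed), fibroblast (3220 to 8767), lung (0 to 2.16) and atrium (1.12 to 6.25) are given here alone. A result for 1 gene of the pathway list is not reported here.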

Additional observations from a re-analysis of the deposited data

Results flagged for a closer look

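Ifi27l2a was singled out because its MI and naive libraries differed in opposite directions in the 2 genotypes, without overlap. The mice were not paired, and MI and sex cannot be told apart. Its response to MI in Vegfc-deficient minus control hearts was -1.80 on the log2 scale, with an edgeR quasi-likelihood adjusted p of 0.383, which does not pass the threshold of 0.05. All 3 MI control values (283 to 366 CPM) lay above both naive control values (158 and 213 CPM), and all 3 MI Vegfc-deficient values (136 to 171 CPM) lay below all naive Vegfc-deficient values (249 to 384 CPM). Of 14779 genes tested, 102 showed such opposite differences.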

How the results depend on the processing

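Limits. The groups held 2 or 3 libraries, 1 of which (M38) set the level of many of these genes, and MI and sex cannot be told apart. The count of genes called higher after MI was 8 to 39 in control hearts (29 with all libraries, 8 without M44 or M45) and 7 to 19 in Vegfc-deficient hearts (9 with all, 19 without M38) when 1 library was left out, and 17 in Vegfc-deficient hearts when those groups were fitted alone. The count called lower in Vegfc-deficient hearts was 1 to 3, with 1 without M34. DESeq2 called 1 gene lower, Ifi27l2a, between genotypes after MI and 1 in the interaction, where edgeR called 0. The naive control median level was 24.7 CPM, and 25.3 CPM with DESeq2 size factors. No paired analysis was possible because no replicate numbers are shared between groups.

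Some log2 fold changes that did not pass changed sign with 1 library left out. M38 gave the most such changes of any library, 14 of 29. In Vegfc-deficient against control hearts after MI the ranges were -1.06 to 0.18 for Irf1, -0.87 to 0.39 for Irf7, -0.59 to 0.10 for Dhx58, -1.89 to 0.36 for Zbp1, -0.82 to 0.52 for Ifit3, -0.11 to 0.73 for Oasl2, -0.60 to 0.33 for Mx1, -0.35 to 0.43 for Rsad2, -0.12 to 0.19 for Ifitm3, -0.29 to 0.35 for Usp18, -0.28 to 0.37 for Parp14, -1.87 to 0.28 for Gbp2 and -2.87 to 0.53 for Iigp1. For MI against naive in control hearts they were -0.30 to 0.98 for Irf1 and -0.63 to 2.81 for Iigp1, and in Vegfc-deficient hearts -0.0916 to 0.19 for Irf1 and -0.17 to 0.72 for Rsad2. Irf1 in Vegfc-deficient hearts was also -0.0426 with DESeq2 size factors and -0.0419 with the DESeq2 test, beside 0.01. Of 594 values with 1 library left out, 534 kept their direction and their side of the threshold, and of 216 under the other settings 206 did. Without M38, only 35 of 54 values did, whereas 47 to 52 did with each of the other libraries left out.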
